A study of Homo sapiens with 6 samples.

Results

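DNA replication and G1/S genes were followed in Hep3B cells, a human hepatocellular carcinoma line, after transfection with siRNA against SMARCA4 (si-SMARCA4, 3 libraries) or with control siRNA (si-Cont, 3 libraries). The product of SMARCA4, BRG1, is the motor subunit that lets SWI/SNF complexes move nucleosomes. The set holds 49 genes of the 57773 in the deposited gene table, chosen by symbol for their role in DNA replication or in entry into S phase, and each symbol matched 1 row. They were arranged by step into licensing (6 genes), helicase (12), polymerase (9), clamp and other fork proteins (11), nucleotide supply (4) and the E2F and G1/S regulators (7). Total RNA was sequenced, and the values are FPKM, that is reads scaled by gene length and by library size. The siRNA sequences and the time between transfection and harvest are not known from the sources at hand. Nothing in the labels tells whether replicates came from separate cultures, and the p-values therefore speak only of the spread among libraries.

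DNA is licensed for replication in G1, when the origin recognition complex, CDC6 and CDT1 load the MCM2-7 helicase ring onto chromatin. In S phase CDC45 and the GINS complex join MCM2-7 to form the working helicase, polymerases alpha, delta and epsilon copy the strands, the RFC loader places the PCNA clamp on DNA, RPA covers single strands, and ribonucleotide reductase, thymidylate synthase and thymidine kinase supply nucleotides. Many of these genes are transcribed in a burst at the G1/S border under E2F factors, which cyclin E with CDK2 and the phosphatase CDC25A help to release from RB proteins. Hep3B cells are known to lack RB function. RB1 stood at 0.542, 0.688 and 0.668 FPKM in si-SMARCA4 and at 0.556, 0.495 and 0.551 FPKM in si-Cont. It lay under the mean of 1 FPKM asked for in the test, and its groups overlapped.

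The targeted gene followed the labels. SMARCA4 (ENSG00000127616) stood at 3.798, 3.782 and 4.012 FPKM in si-SMARCA4, against 15.7, 19.5 and 16.6 FPKM in si-Cont, which is 22.3% of the si-Cont mean (limma adjusted p = 1.63e-08). Each library had from 19084308 to 22719014 reads on genes, as recovered from the steps of the FPKM values. They made up 63.6% ± 0.717 of the FPKM denominator in si-SMARCA4 and 68.0% ± 2.15 in si-Cont (SD, n = 3 each). On the second principal component si-Cont replicate 2 stood apart, at -10.96, while the other 5 libraries lay between -1.83 and 5.70. The 8 hepatocyte lineage markers looked up were all present, the lowest being TTR at 18.8 FPKM in si-SMARCA4 and 12.2 FPKM in si-Cont, whereas the endothelial markers VWF, CDH5 and KDR were listed at 0 in every library and ESAM averaged 0.727 FPKM in si-SMARCA4 and 0.463 FPKM in si-Cont. Of the immune markers reported here PTPRC, CD3E and CD14 averaged at most 0.182 FPKM in either group, but LYZ averaged 16.0 FPKM in si-SMARCA4 and 16.4 FPKM in si-Cont, and CD68 averaged 10.6 FPKM in si-SMARCA4 and 17.2 FPKM in si-Cont and was called lower (limma adjusted p = 2.37e-05). Of 5 fibroblast and stellate markers LUM averaged 11.4 FPKM in si-SMARCA4 and 7.25 FPKM in si-Cont and was called higher (limma adjusted p = 1.15e-05), and the other 4 averaged at most 0.498 FPKM. Of the hepatocyte markers 5 were called lower and 2 higher, and the part of these marker differences in the results below was not tested.

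All 49 replication and G1/S genes were expressed above a mean of 1 FPKM and were tested. The comparison asks which of them differ when SMARCA4 is depleted. In si-SMARCA4 26 genes were lower and 6 higher at a Benjamini-Hochberg adjusted p under 0.05 (limma on log2(FPKM + 1), adjusted over 11123 genes), and 17 were not called. Of all genes tested 33.6% were called lower and 22.4% higher, so that the share called lower was 53.1% of the replication genes and the share called higher 12.2%. The changes were moderate: the median log2 fold change was -0.18, against -0.04 over all genes tested, and the values ran from -1.0 (PCNA) to 0.32 (RPA2). The 2 groups of libraries did not overlap in 27 genes that were lower and 7 that were higher, where 36.6% and 25.7% of all genes tested did so. The split of calls rested in part on scaling. Over all genes 3733 were lower and 2494 higher, against 2882 and 3776 with FPKM rescaled to the reads over genes; the replication genes gave 24 lower and 9 higher with that scaling, and 24 lower and 10 higher with quantile normalization, under which 29.5% of all genes were called lower and 30.1% higher. Without si-Cont replicate 2 there were 33 lower and 5 higher, while over all genes 4520 were lower and 2621 higher. In bulk RNA, a smaller share of cells in S phase and less RNA per cell cannot be told apart.

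**Figure D1:**
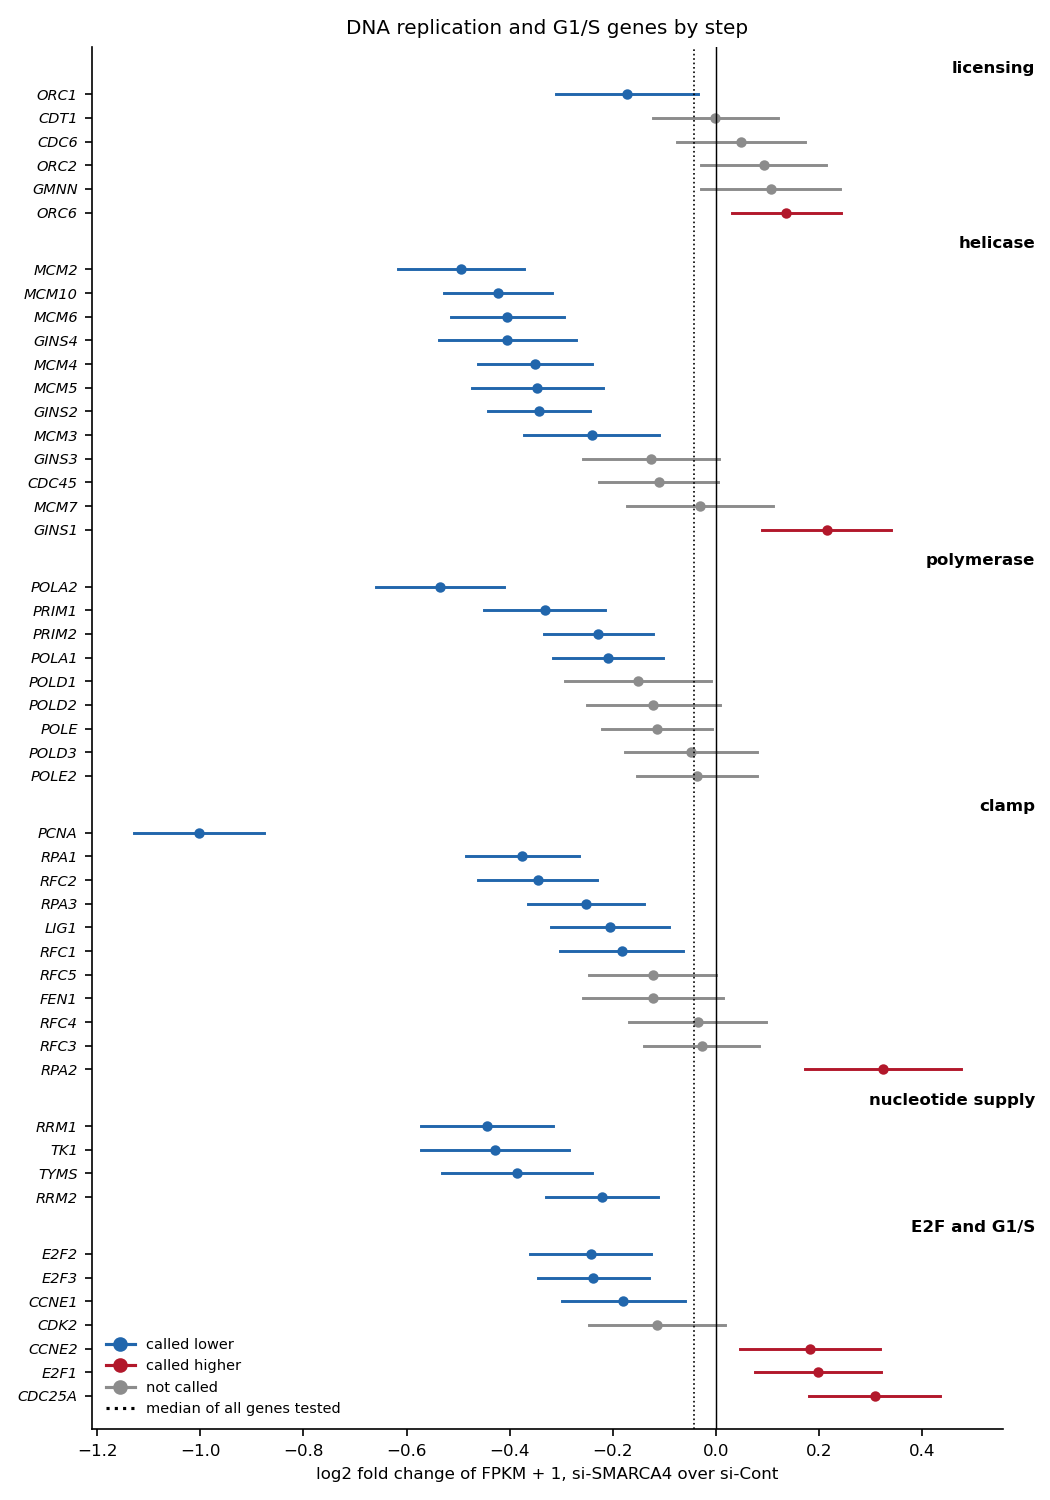
Log2 fold change of FPKM + 1, si-SMARCA4 over si-Cont, for the 49 genes by step, with moderated 95% intervals from limma; blue genes were called lower, red genes higher and grey genes not called, and the dotted line marks the median of all genes tested (-0.04). PCNA lies farthest left at -1.0, all 4 nucleotide supply genes lie below 0, and the licensing genes lie between -0.17 and 0.14.

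Promoters of these genes are known for E2F binding words, so the RefSeq promoter windows (GRCh38.p14, 250 bases before to 50 after the annotated start) were searched on both strands for TTTCCCGC, TTTGGCGC, TTTCGCGC and TTTGCCGC. A window was found for 41 of the 49 genes. Only 1 window per symbol was used for these and for the genes tested, while all promoters were counted without that step. At least 1 word lay in 19 of them (46.3%), against 5.52% of the 8212 promoters matched to genes tested and 3.31% of all 35116 promoters. CCAAT, the word bound by NF-Y, lay in 24 (58.5%), against 37.4% of the promoters of genes tested, and GGGCGG, bound by Sp1 and related factors, in 31 (75.6%), against 70.2%. Words can overlap each other, and a match is not a site shown to be bound. The windows below show members whose values are described further on and whose promoters share these words while their transcripts went in different directions; capitals mark the E2F words, read 5′ to 3′ on the strand of the gene.
MCM2, chr3:127598404-127598433, plus strand, called lower: tgaaccactTTTCGCGCGAAAcctggttgt
MCM6, chr2:135876575-135876604, minus strand, called lower: ggctttgcaTTTGGCGCGAAAtccctttcc
POLA2, chr11:65261898-65261927, plus strand, called lower: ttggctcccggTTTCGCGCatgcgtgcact
E2F2, chr1:23531257-23531286, minus strand, called lower: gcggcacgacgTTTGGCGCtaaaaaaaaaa
E2F3, chr6:20401815-20401844, plus strand, called lower: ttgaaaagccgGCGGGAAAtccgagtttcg
CDC6, chr17:40287875-40287904, plus strand, not called: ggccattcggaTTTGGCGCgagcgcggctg
GINS1, chr20:25407667-25407696, plus strand, called higher: agctttgttcgGCGCCAAAgcgcggagcgg
CDC25A, chr3:48188443-48188472, minus strand, called higher: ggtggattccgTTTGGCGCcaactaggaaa
E2F1, chr20:33686393-33686422, minus strand, called higher: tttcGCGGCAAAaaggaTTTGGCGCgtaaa

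MCM2 carries a pair of overlapping words that form a palindrome, MCM6 holds 4 words in all, as overlapping pairs at 2 places of which the first is shown, and E2F1, whose own promoter is a known E2F target, carries a pair 5 bases apart. The same word, TTTGGCGC, lies on one strand or the other in MCM6, E2F2 and POLA1, which were called lower. It also lies in CDC6, POLE and POLE2, which were not called, and in GINS1, CDC25A and E2F1, which were called higher. The windows of POLA1, POLE and POLE2 are not shown. Of the 19 genes with a word 10 were called lower, 3 higher and 6 not called, and of the 22 without one 12 were called lower, 1 higher and 9 not called. PCNA, the gene with the largest change, holds none of these E2F words in its window and has CCAAT there at 2 places.

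Of the 6 licensing genes ORC1 was called lower, ORC6 was called higher and the other 4 were not called. That is 16.7% each way, where 33.6% of all genes tested were called lower and 22.4% higher. The licensing count depended on the scaling. With median-ratio, upper-quartile, quantile or reads-over-genes scaling 4 were called higher (ORC6, ORC2, GMNN and CDC6) and 0 lower. Voom called 3 higher and 0 lower. ORC1, the large ATPase subunit of the origin recognition complex, stood at 7.41, 7.46 and 7.01 FPKM in si-SMARCA4, against 7.91, 7.88 and 9.29 FPKM in si-Cont. Its groups lay apart by a narrow gap, and si-Cont replicate 3 was the highest (log2 fold change -0.17, SE 0.06, limma adjusted p = 0.0362). That call was lost in 10 of 17 alternative analyses, among them every other scaling. ORC6, the smallest subunit of the complex, had 5.16, 5.12 and 4.91 FPKM in si-SMARCA4 and 4.69, 4.28 and 4.58 FPKM in si-Cont (log2 fold change 0.14, SE 0.05, limma adjusted p = 0.0314). Every si-SMARCA4 library was above every si-Cont library, and the call was lost in 5 alternatives, without si-Cont replicate 2 among them.

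The loading factors themselves were not called in the FPKM fit. CDC6, the ATPase that recruits the helicase to origins, averaged 35.2 ± 0.662 FPKM in si-SMARCA4 and 34.0 ± 1.97 FPKM in si-Cont (SD, n = 3 each), and its partner CDT1 averaged 6.87 ± 0.284 FPKM in si-SMARCA4 and 6.88 ± 0.450 FPKM in si-Cont. The 95% interval of the log2 fold change ran from -0.07 to 0.17 for CDC6 and from -0.12 to 0.12 for CDT1. Median-ratio scaling called CDC6 higher at a log2 fold change of 0.10 (limma adjusted p = 0.0417). GMNN, which encodes the CDT1 inhibitor geminin, stood at 31.7, 31.8 and 31.04 FPKM in si-SMARCA4, against 30.8, 26.7 and 30.3 FPKM in si-Cont. ORC2, another subunit of the complex, stood at 12.5, 11.9 and 12.6 FPKM in si-SMARCA4 and at 12.1, 10.7 and 11.7 FPKM in si-Cont. In both genes si-Cont replicate 2 was the lowest library; the groups of GMNN did not overlap and those of ORC2 did. Neither was called (limma adjusted p = 0.162 and 0.172), but median-ratio scaling called both higher, with log2 fold changes of 0.16 and 0.14 and adjusted p of 0.00913 and 0.0108.

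Of the 12 helicase genes 8 fell (66.7%) and 1, GINS1, rose (8.33%), where 33.6% of all genes tested were called lower and 22.4% higher. MCM2, a subunit of the ring, stood at 20.7, 21.0 and 21.6 FPKM in si-SMARCA4, against 29.2, 29.1 and 32.3 FPKM in si-Cont. The groups were well apart, and si-SMARCA4 was at 70.0% of the si-Cont mean (log2 fold change -0.49, SE 0.06, limma adjusted p = 2.89e-05). MCM6, another subunit of the ring, stood at 23.1, 21.9 and 22.6 FPKM in si-SMARCA4 and at 29.96, 31.1 and 29.5 FPKM in si-Cont (log2 fold change -0.40, SE 0.05, limma adjusted p = 5.43e-05). MCM3, MCM4 and MCM5 were also called lower, at 84.4%, 77.8% and 77.6% of si-Cont. MCM7 was the one subunit of the ring that was not called: it averaged 52.3 ± 1.249 FPKM in si-SMARCA4 and 53.6 ± 4.17 FPKM in si-Cont, with overlapping groups and a 95% interval from -0.17 to 0.11. Its sign turned with other scalings, and with quantile normalization it was called higher at a log2 fold change of 0.11 (limma adjusted p = 0.0147). Without si-Cont replicate 2 it was called lower at a log2 fold change of -0.09 (limma adjusted p = 0.0477).

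Ratios within a library do not depend on the scaling between libraries, and 5 were computed, chosen after the values were seen. The log2 ratio of MCM7 to the mean of MCM2 to MCM6 was 0.95, 0.97 and 0.99 in si-SMARCA4 and 0.66, 0.54 and 0.66 in si-Cont. The difference of 0.35 was larger than the SD within either group (0.0204 in si-SMARCA4 and 0.0685 in si-Cont, n = 3 each). The exact permutation p was 0.1, two-sided, the smallest that 3 against 3 libraries can give. The adjusted value over the 5 ratios was also 0.1, so none of them can reach 0.05. In all pairs but that of MCM7 the groups of both genes already lay apart, in opposite directions. Their ratios therefore had to lie apart with an exact permutation p of 0.1, which is no separate evidence. On the opposite strand MCM7 shares 8.94% of its exon bases (GENCODE v29) with AP4M1, which averaged 3.66 FPKM in si-SMARCA4 and 3.99 FPKM in si-Cont.

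MCM10, a factor that helps to activate the loaded helicase, stood at 7.51, 7.87 and 7.32 FPKM in si-SMARCA4, against 10.6, 10.2 and 10.6 FPKM in si-Cont (log2 fold change -0.42, SE 0.05, limma adjusted p = 2.84e-05). CDC45 was at 91.8% of si-Cont with overlapping groups and was not called (limma adjusted p = 0.0943), although it was with the replicate number as a block (adjusted p = 0.0489). CDC45 was also called lower without si-Cont replicate 2 (limma adjusted p = 0.0114). The 4 subunits of the GINS complex did not move together. GINS2 stood at 5.08, 4.97 and 4.96 FPKM in si-SMARCA4 and at 6.64, 6.403 and 6.83 FPKM in si-Cont (log2 fold change -0.34, SE 0.04, limma adjusted p = 8.79e-05), and GINS4 was lower as well, at 70.4% of si-Cont. GINS1 stood at 12.5, 12.1 and 11.6 FPKM in si-SMARCA4, against 10.9, 9.49 and 10.4 FPKM in si-Cont, so every si-SMARCA4 library was the higher (log2 fold change 0.21, SE 0.06, limma adjusted p = 0.00784). GINS3, at 2.81 FPKM in si-SMARCA4 and 3.15 FPKM in si-Cont, was not called (limma adjusted p = 0.0963). The log2 ratio of GINS1 to GINS2 differed by 0.64 between the groups, with SDs of 0.0353 in si-SMARCA4 and 0.0772 in si-Cont (exact permutation p = 0.1).

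Of the polymerase genes, the 4 subunits of polymerase alpha and its primase were called lower. The 5 subunits of polymerases delta and epsilon that are in the set were not. Called lower were thus 44.4% of the step, against 33.6% of all genes tested. POLA2, the accessory subunit of polymerase alpha, stood at 4.20, 3.93 and 4.51 FPKM in si-SMARCA4, against 6.42, 6.28 and 6.96 FPKM in si-Cont. This was 64.3% of si-Cont and the second largest fall among the 49 genes (log2 fold change -0.53, SE 0.06, limma adjusted p = 1.91e-05). PRIM1, the catalytic primase subunit, stood at 10.9, 10.6 and 10.7 FPKM in si-SMARCA4 and at 14.0, 12.8 and 14.5 FPKM in si-Cont (log2 fold change -0.33). PRIM2, the large primase subunit, stood at 7.71, 7.43 and 7.05 FPKM in si-SMARCA4 and at 8.92, 8.63 and 8.94 FPKM in si-Cont (log2 fold change -0.23). POLA1, the catalytic subunit of polymerase alpha, stood at 6.23, 5.85 and 6.001 FPKM in si-SMARCA4 and at 7.27, 6.80 and 7.30 FPKM in si-Cont (log2 fold change -0.21). In all 4 genes the si-SMARCA4 libraries lay below every si-Cont library, and each call held in all 17 alternatives.

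POLD1, POLD2 and POLD3 of polymerase delta stood at 88.8%, 91.6% and 96.0% of si-Cont, and POLE and POLE2 of polymerase epsilon at 91.1% and 96.9%. Their log2 fold changes lay below 0 in the fit described, but those of POLD3 and POLE2 turned above 0 under other scalings. POLD1 and POLD2 were called lower with the replicate block (adjusted p = 0.0150 and 0.0316, against limma adjusted p of 0.0646 and 0.101 without it) and without si-Cont replicate 2. POLD4, POLE3 and POLE4 are on the list of other replication genes described below and were not called in the fit described. Whether polymerase alpha genes changed more than those of delta and epsilon was not tested.

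PCNA, the sliding clamp that tethers polymerases to DNA, showed the largest change of the 49 genes. PCNA (ENSG00000132646) stood at 51.1, 48.5 and 48.8 FPKM in si-SMARCA4, against 103, 94.8 and 102 FPKM in si-Cont. The groups were far apart at 49.4% of the si-Cont mean (log2 fold change -1.0, SE 0.06, 95% interval -1.13 to -0.88, limma adjusted p = 2.49e-07), with 2192 to 5003 reads behind each value. It had the highest level of the 49 genes in si-Cont and held rank 3 in si-SMARCA4, behind MCM3 (62.8 FPKM) and MCM7 (52.3 FPKM). Among all 11123 genes tested it had the 94th lowest log2 fold change. Over the 17 alternatives the PCNA log2 fold change ran from -1.04 to -0.87.

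**Figure D2:**
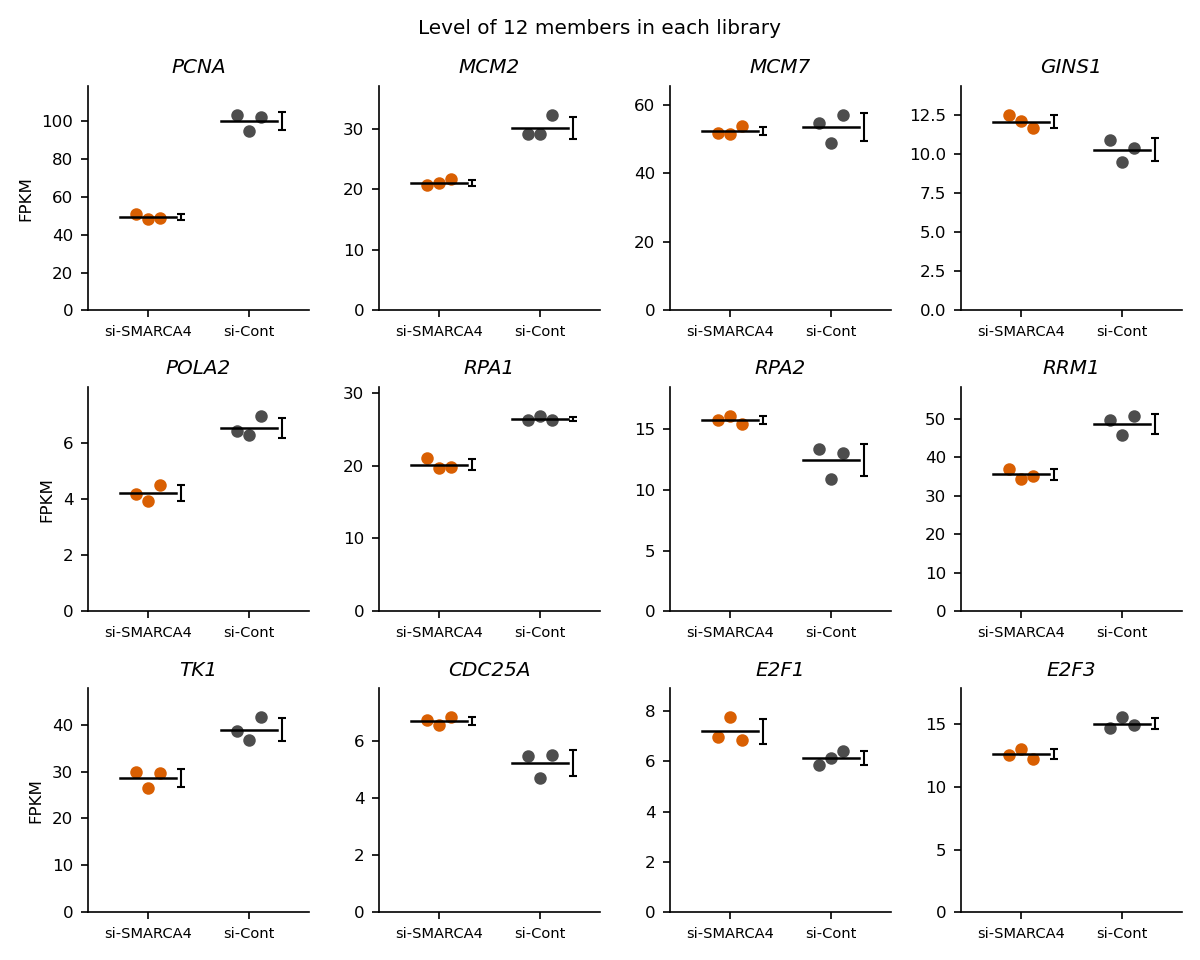
FPKM of 12 members in each library (linear axes from 0), si-SMARCA4 left of si-Cont; points are libraries, horizontal lines the means and bars the SD (n = 3 each). PCNA averages 49.4 FPKM in si-SMARCA4 and 100.2 FPKM in si-Cont, whereas MCM7 averages 52.3 FPKM in si-SMARCA4 and 53.6 FPKM in si-Cont with overlapping groups, and RPA2, GINS1, CDC25A and E2F1 lie higher in si-SMARCA4.

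Of the genes for the 5 subunits of the RFC complex, which opens the PCNA ring and loads it, 2 were called lower, where 33.6% of all genes tested were. RFC2 stood at 15.6, 14.98 and 14.7 FPKM in si-SMARCA4, against 20.2, 18.4 and 19.8 FPKM in si-Cont, with groups apart (log2 fold change -0.35, SE 0.05, limma adjusted p = 0.000247). RFC1, the large subunit, was at 87.7% of si-Cont (limma adjusted p = 0.0140), a call lost in 5 alternatives. RFC3, RFC4 and RFC5 stood at 97.9%, 97.3% and 91.0% and were not called, although RFC5 was with the replicate block (adjusted p = 0.0403, against 0.0849 without it). RFC5 was also called lower without si-Cont replicate 2 (limma adjusted p = 0.00291). RFC5 shares 5.72% of its exon bases with WSB2 on the opposite strand. WSB2 was called higher, at 23.7 FPKM in si-SMARCA4 and 21.5 FPKM in si-Cont. FEN1, which trims Okazaki fragments, averaged 43.3 FPKM in si-SMARCA4 and 47.3 FPKM in si-Cont (limma adjusted p = 0.115, and 0.0492 with the replicate block). Without si-Cont replicate 2 FEN1 was called lower as well (limma adjusted p = 0.000842). The ligase LIG1, which seals Okazaki fragments, was called lower at 85.0% of si-Cont.

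RPA is a trimer of RPA1, RPA2 and RPA3 that coats single-stranded DNA, and its subunits moved in opposite directions. RPA1, the large subunit, stood at 21.0, 19.6 and 19.7 FPKM in si-SMARCA4, against 26.2, 26.8 and 26.2 FPKM in si-Cont (log2 fold change -0.38, SE 0.05, limma adjusted p = 9.41e-05). RPA3, the small subunit, stood at 8.23, 7.47 and 7.68 FPKM in si-SMARCA4 and at 9.81, 9.13 and 9.47 FPKM in si-Cont (log2 fold change -0.25, SE 0.05, limma adjusted p = 0.00168). RPA2, the subunit that is phosphorylated under replication stress, stood at 15.8, 16.1 and 15.4 FPKM in si-SMARCA4, against 13.3, 10.9 and 13.04 FPKM in si-Cont. Every si-SMARCA4 library exceeded every si-Cont library, of which replicate 2 was the lowest (log2 fold change 0.32, SE 0.07, limma adjusted p = 0.00215); the log2 fold change ran from 0.24 to 0.41 over the alternatives and was called in all 17. The log2 ratio of RPA2 to RPA1 was -0.41, -0.29 and -0.35 in si-SMARCA4 and -0.97, -1.29 and -1.01 in si-Cont, a difference of 0.74 (exact permutation p = 0.1).

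All 4 nucleotide supply genes were called lower, in the fit described and in all 17 alternatives. Of all genes tested 33.6% were called lower in the fit described. RRM1, the large subunit of ribonucleotide reductase, stood at 37.1, 34.5 and 35.1 FPKM in si-SMARCA4, against 49.8, 45.8 and 50.7 FPKM in si-Cont (log2 fold change -0.44, SE 0.06, limma adjusted p = 8.53e-05). RRM2, its small subunit, fell less, to 19.97, 19.3 and 18.996 FPKM in si-SMARCA4, against 23.6, 22.2 and 22.7 FPKM in si-Cont (log2 fold change -0.22, SE 0.05, limma adjusted p = 0.00301). TK1, the S-phase thymidine kinase, stood at 29.8, 26.5 and 29.7 FPKM in si-SMARCA4 and at 38.6, 36.6 and 41.5 FPKM in si-Cont (log2 fold change -0.43, SE 0.07, limma adjusted p = 0.000256). In each of the 4 genes every si-SMARCA4 library was below every si-Cont library.

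TYMS, thymidylate synthase, stood at 12.98, 12.5 and 12.4 FPKM in si-SMARCA4, against 15.9, 18.8 and 15.8 FPKM in si-Cont, where replicate 2 was the highest (log2 fold change -0.39, SE 0.07, limma adjusted p = 0.000554). It shares 39.1% of its exon bases with ENOSF1 on the opposite strand. ENOSF1 averaged 2.48 FPKM in si-SMARCA4 and 2.87 FPKM in si-Cont and was called lower too (limma adjusted p = 0.0214), and since the strand setting of the counting is not given in the sources used here, reads of the pair may have been assigned to either.

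The regulators of G1/S entry split evenly, with 3 of 7 called lower, 3 higher and CDK2 not called. That is 42.9% each way, where 33.6% of all genes tested were called lower and 22.4% higher. Without si-SMARCA4 replicate 2 the step had 2 called lower and 1 higher. CDC25A, the phosphatase that activates CDK2, stood at 6.74, 6.55 and 6.84 FPKM in si-SMARCA4, against 5.50, 4.72 and 5.51 FPKM in si-Cont (log2 fold change 0.31, SE 0.06, limma adjusted p = 0.000979). All si-SMARCA4 libraries were above all si-Cont libraries, and the call held in all 17 alternatives. E2F1, an activating E2F factor, stood at 6.97, 7.75 and 6.84 FPKM in si-SMARCA4 and at 5.87, 6.13 and 6.401 FPKM in si-Cont (log2 fold change 0.20, SE 0.06, limma adjusted p = 0.0109). It rose, with the highest value in si-SMARCA4 replicate 2, without which it was not called.

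The other activating E2F factors fell. E2F3 stood at 12.6, 13.02 and 12.3 FPKM in si-SMARCA4, against 14.7, 15.6 and 14.96 FPKM in si-Cont (log2 fold change -0.24, SE 0.05, limma adjusted p = 0.00171). E2F2, with the lowest level of the 49 genes and 283 to 408 reads per library, stood at 1.77, 1.88 and 1.70 FPKM in si-SMARCA4 and at 2.27, 2.42 and 2.18 FPKM in si-Cont, or 77.7% of si-Cont (log2 fold change -0.24, SE 0.05, limma adjusted p = 0.00260). The groups lay apart in both genes. The log2 ratio of E2F1 to E2F3 was -0.85, -0.75 and -0.84 in si-SMARCA4 and -1.32, -1.34 and -1.22 in si-Cont, a difference of 0.48 (exact permutation p = 0.1).

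The cyclin E genes, whose products pair with CDK2, also parted. CCNE1 stood at 7.17, 6.64 and 7.45 FPKM in si-SMARCA4, against 8.27, 7.74 and 8.47 FPKM in si-Cont (log2 fold change -0.18, SE 0.05, limma adjusted p = 0.0160). CCNE2 stood at 8.08, 8.19 and 7.60 FPKM in si-SMARCA4, against 7.43, 6.23 and 7.05 FPKM in si-Cont (log2 fold change 0.18, SE 0.06, limma adjusted p = 0.0256), and each of these calls was lost in 3 alternatives. The log2 ratio of CCNE2 to CCNE1 was above 0 in all 3 si-SMARCA4 libraries (0.17, 0.30 and 0.03) and below 0 in all 3 si-Cont libraries (-0.15, -0.31 and -0.27), with an exact permutation p of 0.1. CCNE2 shares 37.0% of its exon bases with INTS8 on the opposite strand, and INTS8, at 7.54 FPKM in si-SMARCA4 and 8.41 FPKM in si-Cont, was called lower. CDK2 itself averaged 16.2 FPKM in si-SMARCA4 and 17.6 FPKM in si-Cont with overlapping groups (limma adjusted p = 0.126, and 0.0468 with the replicate block). Without si-Cont replicate 2 CDK2 was called lower as well (limma adjusted p = 0.00383).

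**Figure D3:**
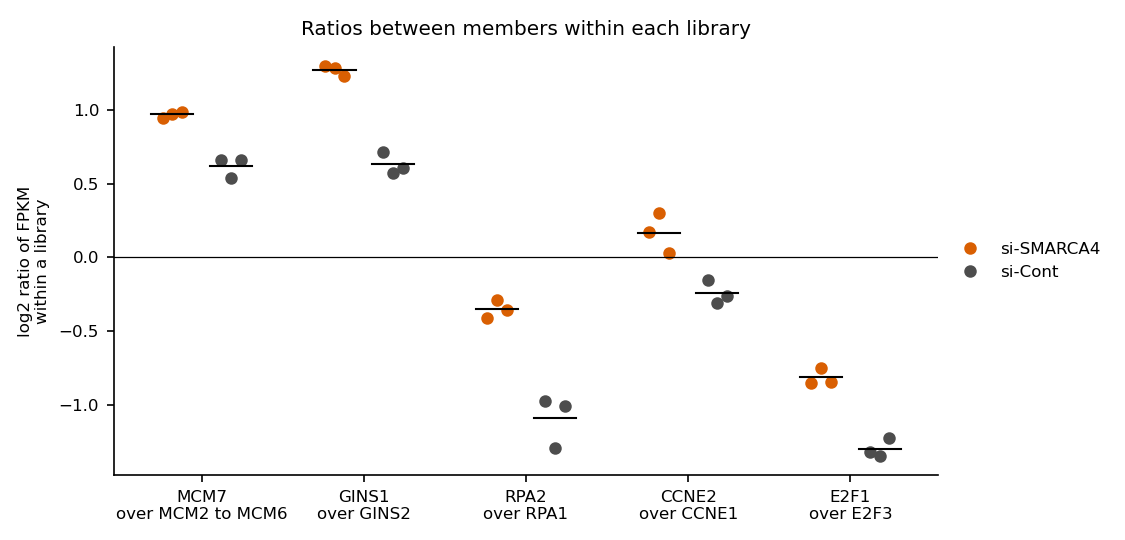
Log2 ratios of FPKM between members within each library, for 5 pairs chosen after the values were seen; points are libraries, si-SMARCA4 left of si-Cont, and horizontal lines are means (n = 3 each). In each pair the 3 si-SMARCA4 libraries lie above the 3 si-Cont libraries, with differences from 0.35 to 0.74. In all pairs but that of MCM7 this follows from both genes having groups apart in opposite directions.

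Genes with the 7-base sequences CTGTCCA or TGTCCAA in the 3′ UTR were lower on average in these data, a pattern found on the same fold changes and therefore no separate evidence here. Of the 49 genes 7 held one of them in their longest annotated 3′ UTR (14.3%, GENCODE v29 on GRCh38), against 20.5% of the 10292 genes searched. The median length of these 3′ UTRs was 980 bases in the 49 genes and 1400.5 bases in the genes searched, and the shares were not adjusted for length. POLA2, RPA1, GINS4, E2F2 and E2F3 were called lower, POLD3 and POLE were not called, and none of the 7 was called higher. Of the 42 genes without such a sequence 21 were called lower and 6 higher. PCNA, MCM2, MCM6, RRM1 and TK1 hold none of these sequences. Over all genes searched, 945 of the 2112 with such a sequence were called lower and 366 higher. Of the 8180 without one, 2550 were called lower and 1994 higher. The median log2 fold change was -0.24 over the 7 and -0.16 over the 42, and over all genes searched it was -0.11 with and -0.03 without. Sites of POLA2, RPA1, E2F2 and E2F3 are shown, and that of GINS4 is not, with the matching bases in capitals, 5′ to 3′ on the strand of the gene, with the first match of the longest type in each.
POLA2, chr11:65298050-65298079, plus strand: cagccccagtcCTGTCCAgtgggtaactct
RPA1, chr17:1899700-1899729, plus strand: taattaatataCTGTCCAAaagtgaagttt
E2F2, chr1:23509393-23509422, minus strand: caggcccatcaCTGTCCAtgttccagggca
E2F3, chr6:20491904-20491933, plus strand: cctaccagttaTGTCCAAgaatggctttcc
RPA1 alone of these carries the 8-base form, CTGTCCAA, and has 3 sites in all, whereas E2F2 has 2. POLE carries the 8-base form as well and stood at 91.1% of si-Cont (limma adjusted p = 0.0660). Whether these cells use the 3′ UTRs searched was not examined.

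Other genes of DNA replication and its regulation, from a list of 64 found in the table and drawn up without the 49, were counted in the same way. Of 62 tested 31 were called lower and 4 higher, with a median log2 fold change of -0.14. That is 50% lower and 6.45% higher, against 33.6% and 22.4% of all genes tested, whose median was -0.04. Other scalings called more of the list higher, as counted in the closing section. The largest fall was in SKP2, the ubiquitin ligase subunit that removes CDK inhibitors at G1/S, at 20.78, 19.99 and 20.15 FPKM in si-SMARCA4, against 44.2, 41.6 and 45.9 FPKM in si-Cont (log2 fold change -1.07, SE 0.05, limma adjusted p = 9.3e-08). UHRF1, which guides DNA methylation at the fork, was at 53.8% of si-Cont, and CHAF1B, a subunit of the chromatin assembly factor that binds PCNA, at 71.2%. TFDP2, a dimer partner of E2F factors, was at 58.9%, the phosphatase CDC25B at 58.4% and TICRR, which helps to fire origins, at 66.0%. The 4 called higher were WEE1, E2F6, E2F7 and MCM9, named after their values were seen; WEE1 is a kinase that restrains CDKs, and E2F6 and E2F7 are repressive E2F factors. They stood at 125%, 128%, 116% and 120% of si-Cont. Of 20 proliferation and mitosis genes 16 were called lower and 1, KIF23 (named after its value was seen), higher. That is 80% and 5%, beside the same shares of all genes tested.

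**Figure D4:**
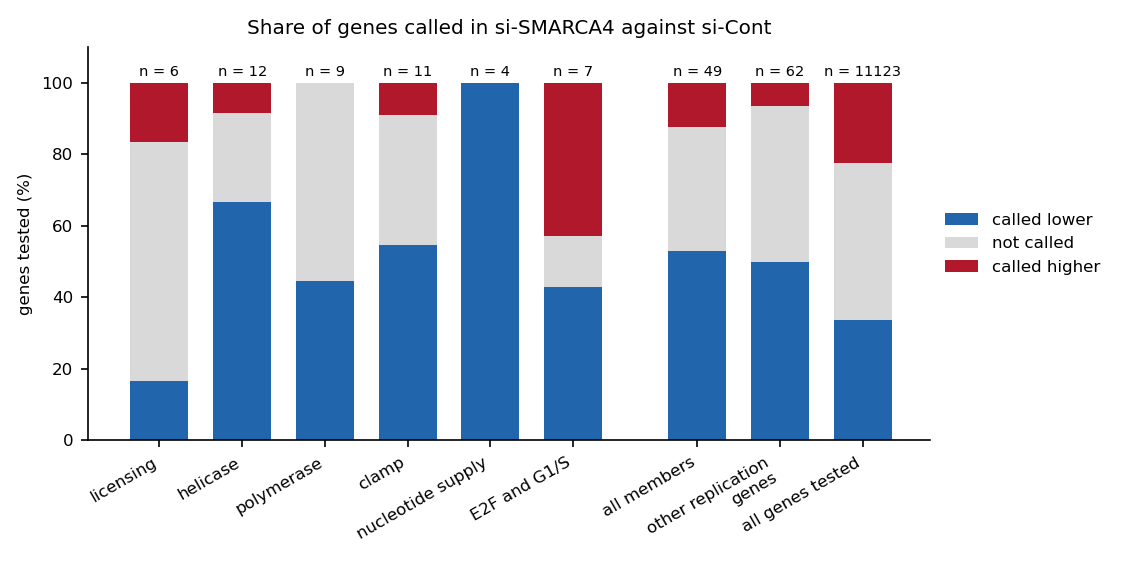
Share of genes tested that were called lower (blue), not called (grey) or called higher (red) in si-SMARCA4 against si-Cont, by step, for all 49 members, for 62 other replication genes and for all 11123 genes tested, with the number tested above each bar. Nucleotide supply genes are all called lower, the E2F and G1/S genes split 3 to 3, and the shares for all genes tested are 33.6% lower and 22.4% higher.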

How the data were processed

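RNA sequencing values of 6 Hep3B libraries were used, 3 si-SMARCA4 and 3 si-Cont, grouped by their titles. The deposited values are FPKM per gene for 57773 genes, made by the authors on hg19, per the submitters' processing notes; the sources used here do not name aligner, counter, annotation or strand setting. All 25119 genes above 0 were whole multiples of 1 read's worth (100%, tolerance 1e-07 reads), which gave denominators of 29138265 to 33822440 reads and 283 to 9188 reads per member and library. Depth bears on counting error alone.

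The comparison took the 11123 genes whose mean reached 1 FPKM on log2(FPKM + 1), which understates changes of low genes. It used limma 3.58.1 in R 4.3.3 (trend, two-sided, Benjamini-Hochberg, adjusted p under 0.05). The fit was run on simulated data in which few genes changed. No shift in scaling between groups was simulated, so that check cannot speak for calls that depend on scaling. The members and lists were chosen with earlier results of these data known. Values in every library are given for the 4 members with the smallest p in each step and for members called against their step; MCM7, CCNE1 and CCNE2 were added after their values were seen. Same-numbered libraries of the 2 groups deviated together (r = 0.215, 0.181 and 0.162), so a replicate block was an alternative, beside other pseudocounts (0.1 and 5), filters, scalings, limma voom on recovered reads and leaving out each library. Voom called 6635 genes and the FPKM fit 6227. Promoters are from RefSeq (GRCh38.p14) and 3′ UTRs of at least 50 bases from GENCODE v29 (GRCh38). Other tools were scipy 1.17.1 (permutations), matplotlib 3.10.9 (plots), pandas 2.3.3 and numpy 2.4.6 under Python 3.11.15.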

Additional observations from a re-analysis of the deposited data

How the results depend on the processing

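SMARCA4 kept its sign and call in 17 alternatives, and 26 of the 32 called members did so in each alternative that tested them (16 for GINS4 and E2F2, which a mean of 5 FPKM leaves out), with SMARCA4 at -1.97 to -1.82 when 1 library was left out. In 541 comparisons of called members 27 lost the call, those of ORC1, ORC6, RFC1, CCNE1, CCNE2 and E2F1, and none turned. The replicate block changed no call other than those given above. It gave 32 members lower and 6 higher.

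Leaving out 1 library gave 23 to 33 members lower and 3 to 6 higher (3 without si-SMARCA4 replicate 2), a median of -0.21 to -0.16, 3050 to 4520 of all genes lower and 2040 to 2621 higher, and 27 to 37 other replication genes lower and 3 to 6 higher. The median of the members was -0.0907 with scaling to reads over genes, which gave 3776 genes higher, and quantile normalization gave 10 members higher. At a mean FPKM of at least 5, where fewer genes are tested, 2296 genes were lower and 1387 higher. Other replication genes called higher, 4 in the fit described, numbered 2 at that filter, 8 with median-ratio scaling and with voom, 10 with quantile normalization and 11 with upper-quartile scaling and with scaling to reads over genes. The causes were not tested.

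Of the 17 members not called, 7 changed sign, and of these values only that of MCM7 with quantile normalization passed the threshold as higher. In the order median-ratio, upper-quartile, quantile, reads over genes and voom, CDT1 had 0.0458, 0.0601, 0.0338, 0.0815 and 0.0400, MCM7 0.0224, 0.0385, 0.107, 0.0625 and 0.00773, RFC3 0.0217, 0.0368, 0.0336, 0.0593 and 0.0086, and RFC4 0.0159, 0.0315, 0.0298, 0.0549 and 0.000812. In that order without voom POLE2 had 0.00586, 0.0188, 1.69e-05 and 0.0381. POLD3 had 0.00875 with upper-quartile scaling and 0.0285 with reads over genes, and FEN1 0.0259 with quantile normalization. With 1 library left out CDT1 ran from -0.0493 to 0.026, MCM7 from -0.0934 to 0.0144 and RFC4 from -0.0937 to 0.00654.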
